A study of Mus musculus with 8 samples.

Results

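Hox genes encode homeodomain transcription factors that tell cells of the embryo where they lie along the body axis and along the limb. In the mouse they stand in 4 clusters, A to D, and within a cluster the genes are numbered by paralog group from 1 at the 3′ end to 13 at the 5′ end. Low numbers act in the hindbrain and neck, middle numbers in the chest, and groups 9 to 13 in the lumbar to tail region and in the limb, where groups 9 and 10 act in the upper segment, group 11 in the middle segment and group 13 in the hand or foot. Many mesenchymal cells keep part of this code in the adult. All 39 protein-coding genes whose mouse symbol is Hox followed by a cluster letter and a number were taken, out of 31053 genes in the count tables.

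The cells were fibro/adipogenic progenitors (FAPs), the mesenchymal progenitors that lie between muscle fibres. They came from hind limb skeletal muscles of C57BL/10ScSn-Dmdmdx/J mice (*mdx*, without dystrophin in muscle) aged 45 days, and per the paper's methods were sorted as cells negative for CD45, CD31 and Integrin alpha-7 and positive for SCA-1. Cells with high SCA-1 (SCA1-High-FAPs) and cells with low SCA-1 (SCA1-Low-FAPs, which the submitters named as the control) were each grown for 5 days in growth medium (GM) with no further treatment, with 4 replicates of each cell state from 4 *mdx* mice and 1 library of 3′ ends of mRNA per replicate. No wild type, fore limb or other tissue was analysed here. The values therefore describe hind limb cells from dystrophic muscle in culture, and carry no comparison along the body.

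Libraries held 1880561 to 3985656 counts on genes, so that 3 counts, taken as the limit of detection, stood for a level of 0.753 to 1.595 CPM, the counts per 1000000 counts of a library. CPM values of genes use the library size scaled by TMM, and since a 3′ library reads each transcript at its end, they do not grow with transcript length. The mRNA of Ly6a, which encodes SCA-1, was at 492 to 919 CPM in SCA1-High-FAPs and at 1014 to 1156 CPM in SCA1-Low-FAPs (higher by 0.61 ± 0.17 on the log2 scale, SE, edgeR adjusted p = 0.0341), the opposite order to the sort on surface protein 5 days earlier, and the names of the cell states below are those of the labels. Of the FAP markers, 8 of 8 were detected, with summed levels of 8018 to 10732 CPM in SCA1-High-FAPs and 6954 to 10262 CPM in SCA1-Low-FAPs. Besides Ly6a, Thy1 was called higher in SCA1-Low-FAPs (0.67, edgeR adjusted p = 0.0105) and Dcn lower (-2.08, adjusted p = 0.0167). Of 10 muscle markers, Pax7, Myod1, Myf5, Myog and Ckm were at 0 counts in every library and the other 5 were detected. The summed muscle list was at 2.57 to 9.42 CPM and 6.98 to 22.9 CPM. In it 1 gene was tested by edgeR (2.03, unadjusted p under 0.05, not called), and 1 gene was called by DESeq2. Endothelial markers summed to at most 0.418 CPM and 6.53 CPM, with Tie1 and Emcn at 0, and leukocyte markers to 23.1 to 43.0 CPM and 6.77 to 15.9 CPM, with Adgre1 and Tyrobp at 0 and Lyz2, called higher in SCA1-High-FAPs (-1.42, adjusted p = 0.0153), holding most of it. Schwann cell markers summed to 9.90 to 19.0 CPM and 5.45 to 8.70 CPM, and pericyte markers to 5.88 to 22.6 CPM and 10.5 to 35.4 CPM, with Cspg4 called higher in SCA1-Low-FAPs (2.40, adjusted p = 0.0415). The other pericyte markers did not share this: Rgs5 was at 3.28 and 1.91 CPM and Mcam at 5.58 and 2.47 CPM on average (SCA1-High-FAPs then SCA1-Low-FAPs), with too few counts for the edgeR test and no DESeq2 call, and Kcnj8 had 10 counts. Tenocyte and chondrocyte markers summed to 574 to 793 CPM and 491 to 935 CPM, of which Sox9 and Thbs4 held most, with Acan at 0. Of the 3 tested, 0 were called by edgeR and 1 was called with the replicate block, while DESeq2 called 2 of the list. The 4 proliferation genes Mki67, Top2a, Ccnb1 and Cdk1 were all called higher in SCA1-Low-FAPs (log2 fold changes of 0.82 to 1.11), from 472 to 658 CPM in sum to 839 to 1266 CPM. Replicates 1 and 2 of both cell states held Y-linked RNA and no Xist, and replicates 3 and 4 the reverse. The part of these other genes in the Hox values was not tested.

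Hox mRNA was found mostly from the 5′ part of cluster C. Of the 39 genes, 34 had at least 1 count in some library, 16 had counts in all 8 libraries and 12 had a mean over 10 CPM. A gene with at least 1 count in some library is called detected here, which can lie under the limit of 3 counts. Together they held 11557 counts. Their sum was 602 ± 34.0 CPM (SD, n = 4) for SCA1-High-FAPs, whose libraries ran from 551 to 622 CPM, and 546 ± 42.6 CPM for SCA1-Low-FAPs, whose libraries ran from 484 to 578 CPM, so that the states overlapped. Cluster C carried 70.4% of the Hox CPM of SCA1-High-FAPs and 74.0% of that of SCA1-Low-FAPs, cluster A 23.0% and 18.6%, cluster D 4.44% and 4.41%, and cluster B 2.16% and 2.94%. Hoxc9 and Hoxc10 alone made up 35.1% of Hox CPM over the 8 libraries, and the 10 highest genes made up 88.7%.

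**Figure D1:**
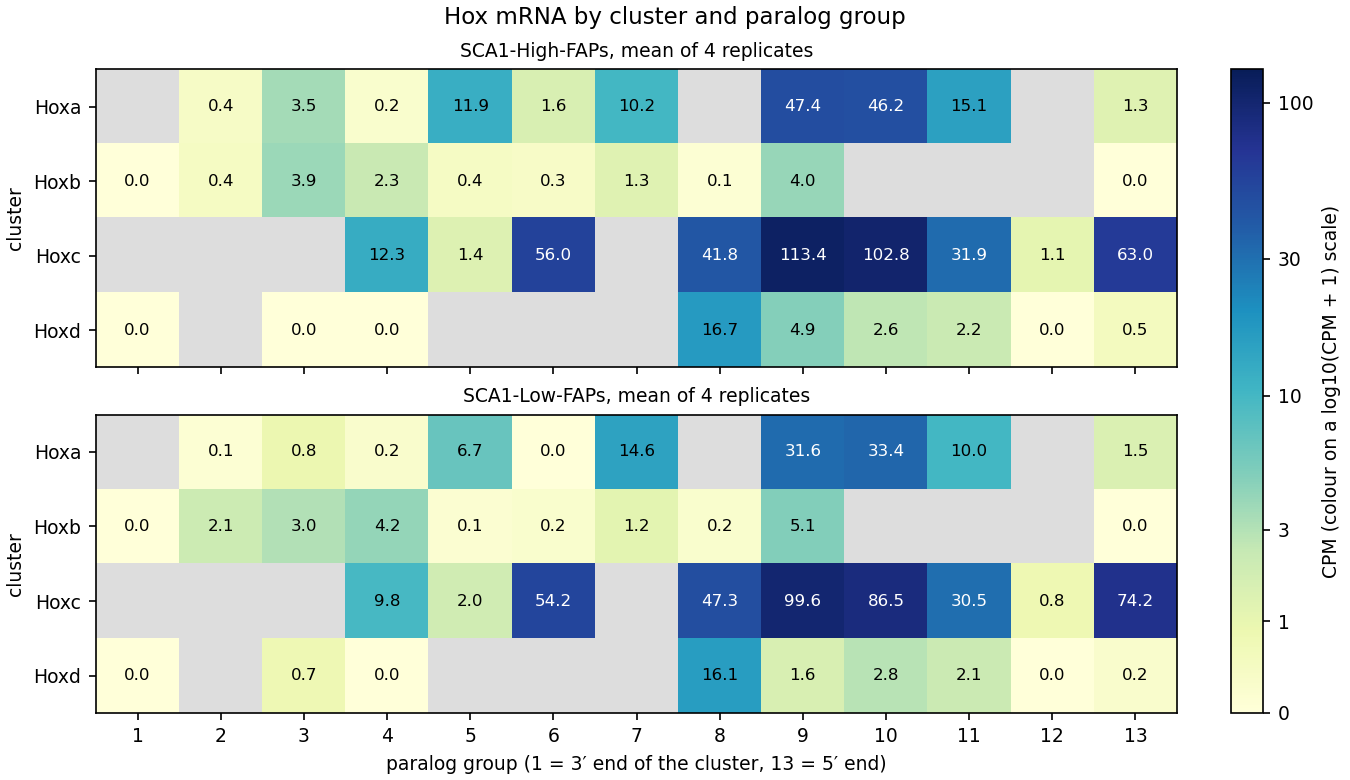
Mean CPM of Hox genes by cluster (rows) and paralog group (columns) in SCA1-High-FAPs (upper panel, n = 4) and SCA1-Low-FAPs (lower panel, n = 4), with colour on a log10(CPM + 1) scale and grey for positions with no gene or no value shown. In both cell states the highest values lay in cluster C, at Hoxc9 (113 and 99.6 CPM) and Hoxc10 (103 and 86.5 CPM). The means of cluster B, and of cluster D apart from Hoxd8 (16.7 and 16.1 CPM), were at most 5.07 CPM.

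Hoxc9 (chr15:102976439-102985099, plus strand, GRCm38) and Hoxc10 (chr15:102966796-102971893), neighbours in the 5′ part of cluster C, were the most abundant. Hoxc9, which sets the identity of lower thoracic spinal levels, was at 105, 129, 114 and 106 CPM in SCA1-High-FAPs and at 131, 62.1, 88.5 and 117 CPM in SCA1-Low-FAPs. Hoxc10, which is transcribed in the embryonic hind limb bud, was at 109, 89.5, 121 and 90.9 CPM in SCA1-High-FAPs and at 74.4, 121, 80.6 and 69.7 CPM in SCA1-Low-FAPs. For both genes the cell states overlapped. The library with the lowest Hoxc9 in SCA1-Low-FAPs, replicate 2, had the highest Hoxc10 of its state. Hoxc11 (chr15:102954427-102957708), likewise a hind limb gene of the embryo, followed at 32.0, 29.4, 24.2 and 42.2 CPM in SCA1-High-FAPs and 44.5, 32.7, 20.0 and 24.8 CPM in SCA1-Low-FAPs.

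At the 5′ end of the cluster, Hoxc13 (chr15:102921103-102928814), known from hair follicles and nails and the tail region, came next after Hoxc9 and Hoxc10. Its values were 69.2, 70.5, 50.1 and 62.3 CPM in SCA1-High-FAPs and 88.5, 88.2, 59.0 and 61.0 CPM in SCA1-Low-FAPs, so that both states ran over a common range of 59.0 to 70.5 CPM. Its direct neighbour Hoxc12 did not share this level. Hoxc12 gave 19 counts in all, at 2.82, 0, 0 and 1.47 CPM in SCA1-High-FAPs and at 1.45, 0, 0.952 and 0.792 CPM in SCA1-Low-FAPs. The level therefore did not follow gene order, since Hoxc12, flanked by Hoxc13 and Hoxc11 at 68.6 and 31.2 CPM on average, lay near the limit of detection.

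In the 3′ part of cluster C, Hoxc6 (chr15:102998257-103011881) and Hoxc8 (chr15:102990607-102994111), genes of the thoracic region and the fore limb level, were also plainly present. Hoxc6 was at 65.9, 60.6, 53.4 and 44.0 CPM in SCA1-High-FAPs and at 48.3, 50.1, 51.1 and 67.3 CPM in SCA1-Low-FAPs. Hoxc8 was at 56.0, 39.8, 36.3 and 35.2 CPM in SCA1-High-FAPs and at 57.0, 38.1, 39.6 and 54.4 CPM in SCA1-Low-FAPs. The states overlapped nearly in full for both. Hoxc4, a gene of the neck region, was at 12.3 ± 2.91 CPM (SD, n = 4) and 9.77 ± 6.08 CPM, and Hoxc5, between it and Hoxc6, had 37 counts at 0.545 to 3.17 CPM, all 9 genes of the cluster thus being detected.

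Cluster A was the next in level and all of its 11 genes had at least 1 count, though Hoxa4 had at most 2 in any library. Hoxa9 (chr6:52223100-52231089, minus strand) and Hoxa10 (chr6:52231197-52240854, minus strand) lie beside each other, and act in the lumbar region and the thigh. Hoxa9 was at 59.3, 47.0, 48.8 and 34.5 CPM in SCA1-High-FAPs and at 22.7, 41.9, 29.2 and 32.7 CPM in SCA1-Low-FAPs, with 1 SCA1-Low-FAPs library above the lowest SCA1-High-FAPs library. Hoxa10 was at 44.7, 44.8, 55.9 and 39.2 CPM in SCA1-High-FAPs and at 30.9, 26.7, 38.1 and 37.8 CPM in SCA1-Low-FAPs. Here the cell states did not overlap, by a gap from 38.1 to 39.2 CPM. Hoxa11 (chr6:52242106-52245810), the gene of the middle limb segment, was uneven among replicates, at 6.59, 20.3, 18.8 and 14.7 CPM in SCA1-High-FAPs and 5.80, 10.9, 3.81 and 19.5 CPM in SCA1-Low-FAPs. Hoxa13, which acts in the hand and foot and at the end of the gut, had 28 counts in all, at 0, 1.81, 0 and 3.30 CPM in SCA1-High-FAPs and at 2.42, 1.09, 1.59 and 0.792 CPM in SCA1-Low-FAPs.

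Hoxa7 and Hoxa5, genes of the thoracic region and of the lower neck and lung, were at 10.2 ± 1.34 CPM and 14.6 ± 9.75 CPM and at 11.9 ± 5.69 CPM and 6.73 ± 4.39 CPM (SD, n = 4, SCA1-High-FAPs then SCA1-Low-FAPs). The spread of Hoxa7 in SCA1-Low-FAPs came from replicate 2, at 28.9 CPM beside 6.77 to 12.1 CPM in the other 3. Hoxa2, Hoxa3, Hoxa4 and Hoxa6 had 4, 41, 5 and 16 counts over all libraries. Hoxa6 was counted in 2 SCA1-High-FAPs libraries with 8 counts each and in no SCA1-Low-FAPs library.

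Cluster D was represented by Hoxd8 (chr2:74704615-74707933, plus strand), a gene of the trunk, at 19.8, 9.49, 19.2 and 18.3 CPM in SCA1-High-FAPs and 14.98, 14.2, 18.4 and 16.9 CPM in SCA1-Low-FAPs. SCA1-High-FAPs replicate 2 was the low value and the rest lay between 14.2 and 19.8 CPM. The genes toward its 5′ end, which pattern the limb, were low: Hoxd9 had 66 counts, Hoxd10 58, Hoxd11 50 and Hoxd13 7, and Hoxd12 had none. Hoxd11, a partner of Hoxa11 in the middle limb segment, was at 0, 3.16, 4.18 and 1.47 CPM in SCA1-High-FAPs and 0.483, 0, 4.12 and 3.96 CPM in SCA1-Low-FAPs. Hoxd13, the main digit gene of the cluster, was at 1.41, 0.452, 0 and 0 CPM in SCA1-High-FAPs and 0, 0, 0.634 and 0.264 CPM in SCA1-Low-FAPs, which is at or under the limit of detection in each library. In cluster B the highest gene was Hoxb9, with 103 counts and 0 to 10.6 CPM, and replicate 4 held its highest value in both cell states (10.3 and 10.6 CPM). Hoxb3, Hoxb4, Hoxb2, Hoxb7, Hoxb5, Hoxb6 and Hoxb8 had 67, 66, 29, 28, 6, 6 and 4 counts.

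Hoxb1, Hoxb13, Hoxd1, Hoxd4 and Hoxd12 had no count in any of the 8 libraries, which allows levels of up to 0.753 CPM in the deepest and 1.595 CPM in the shallowest (counting error only). Hoxd4 and Hoxd3, at 0 and 8 counts, share 52.3% and 62.3% of their exonic bases with other annotated genes on their strand, so that reads there could have been left unassigned, but of the last 500 exonic bases, where 3′ reads fall, 4.4% and 0% were shared. For Hoxa7, Hoxb2 and Hoxb3, 98.6% to 100% of the last 500 exonic bases are overlapped by a gene on the opposite strand, and for Hoxa4 51.0%. The sources used here do not state whether counting used the strand, and the counts of these 4 genes are uncertain to that extent.

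**Figure D2:**
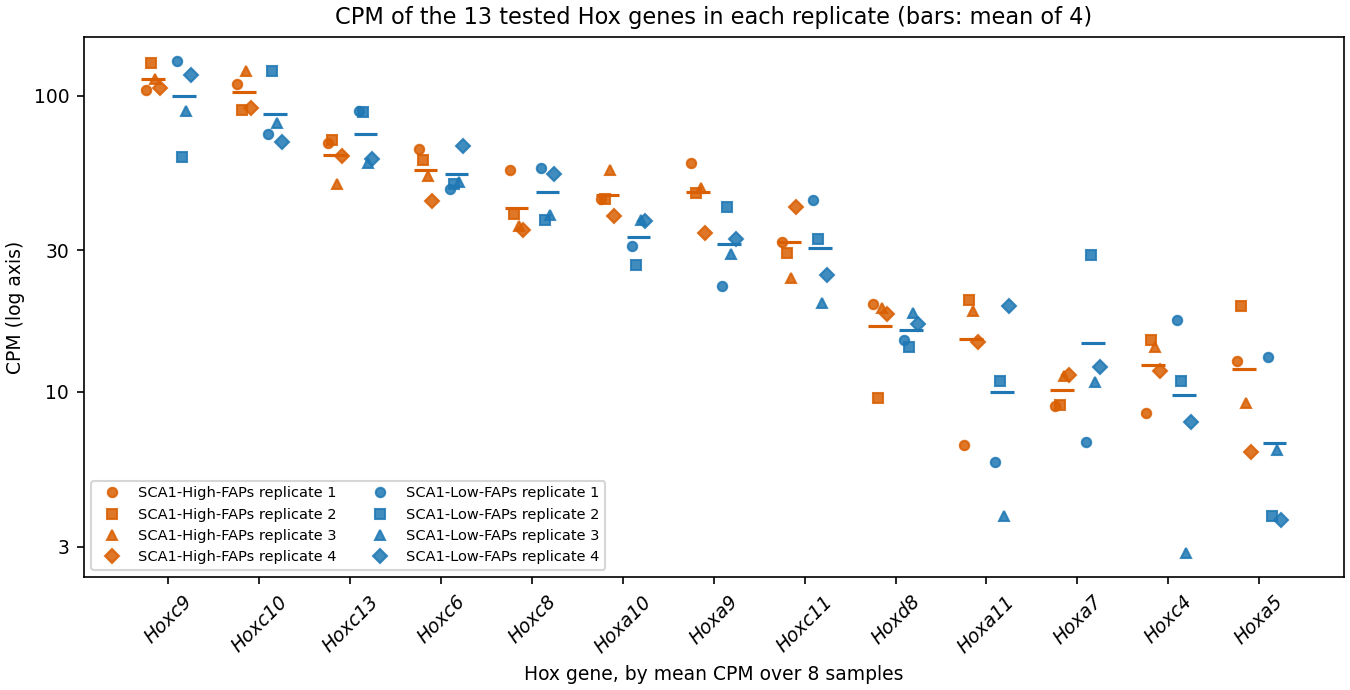
CPM on a log axis of the 13 Hox genes with enough counts for the test, ordered by mean, with 1 point per library (orange SCA1-High-FAPs, blue SCA1-Low-FAPs, marker shape for the replicate) and a bar at the mean of each 4. Points of both cell states overlapped for every gene but Hoxa10, and the scatter widened toward the low end, at Hoxa11, Hoxa7, Hoxc4 and Hoxa5.

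The question of the comparison is whether the cell states, sorted from the same muscles by SCA-1, differ in this code. In total 13 Hox genes had enough counts for the edgeR quasi-likelihood test, 9 of them from groups 8 to 13, and 0 of 13 were called at an adjusted p under 0.05 with a log2 fold change (SCA1-Low-FAPs over SCA1-High-FAPs) beyond 0.5, beside 7.68% of the 10181 genes tested. Among the 6921 tested genes whose mean level lay within the range of the tested Hox genes, 6.92% were called. At an unadjusted p under 0.05 there was 1 Hox gene, Hoxa9, beside 21.3% of all genes tested. DESeq2, which gave a p to all 34 detected Hox genes, likewise called 0 (6.65% of 15872 genes), with Hoxa3, Hoxa6 and Hoxa9 at an unadjusted p under 0.05 (15.5% of genes). The 21 genes that were detected but not tested had at most 103 counts each. Without a filter beyond 1 count, edgeR gave a p to 34 Hox genes and called 0. In that fit Hoxa6, Hoxa9 and Hoxd3 were at an unadjusted p under 0.05, and the lowest adjusted p was 0.101, for Hoxa6. Among the 21 genes, Hoxa3 was at 1.10 to 5.88 CPM in SCA1-High-FAPs and 0 to 1.63 CPM in SCA1-Low-FAPs. Both Hoxa3 and Hoxa6 had a DESeq2 adjusted p of 0.226.

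The largest differences among the tested genes lay in cluster A. Hoxa9 had a log2 fold change of -0.58 ± 0.25 (SE, n = 4 per state, 95% interval -1.11 to -0.06), with an adjusted p of 0.179 in edgeR. Hoxa10 had -0.46 ± 0.23 (95% interval -0.93 to 0.02, adjusted p = 0.253), and was the 1 of 13 tested Hox genes whose cell states did not overlap, beside 14.1% of all genes tested. Hoxa5 had -0.83 ± 0.52 and Hoxa11 -0.57 ± 0.49, with edgeR adjusted p of 0.394 and 0.556, and their intervals reached -1.92 and -1.60. Single libraries moved both: Hoxa5 ran from -1.34 without SCA1-Low-FAPs replicate 1 to -0.48 without SCA1-High-FAPs replicate 2, and Hoxa11 from -1.18 without SCA1-Low-FAPs replicate 4 to -0.30 without SCA1-Low-FAPs replicate 3. Hoxa9 and Hoxa10 ran from -0.73 to -0.45 and from -0.54 to -0.35 when 1 library was left out. Hoxa7 went the other way at 0.50 ± 0.44 (adjusted p = 0.561), and without SCA1-Low-FAPs replicate 2 its value was -0.02. In bulk RNA a lower level cannot be told apart from fewer cells that carry the mRNA.

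In cluster C the log2 fold changes lay between -0.37 and 0.23. They were -0.18 for Hoxc9 (95% interval -0.61 to 0.24), -0.25 for Hoxc10 (-0.67 to 0.16), -0.08 for Hoxc11 (-0.68 to 0.52), -0.04 for Hoxc6 (-0.47 to 0.39), 0.18 for Hoxc8 (-0.31 to 0.67) and 0.23 for Hoxc13 (-0.20 to 0.66), with -0.37 (-1.37 to 0.64) for Hoxc4. With 1 library left out, Hoxc9 ran from -0.33 (without SCA1-Low-FAPs replicate 1) to -0.01 (without SCA1-Low-FAPs replicate 2), Hoxc10 from -0.45 (without SCA1-Low-FAPs replicate 2) to -0.17 (without SCA1-High-FAPs replicate 3) and Hoxc4 from -0.79 (without SCA1-Low-FAPs replicate 1) to -0.06 (without SCA1-Low-FAPs replicate 3). Hoxc8 and Hoxc13 stayed above 0, at 0.09 to 0.36 and 0.13 to 0.31. Hoxd8 stood at -0.05 (-0.73 to 0.63). For 8 of the 13 genes the 95% interval lay within a change of 2-fold in either direction, as it did for 52.9% of all genes tested, while for Hoxa5, Hoxa7, Hoxa9, Hoxa11 and Hoxc4 a change beyond 2-fold was within the interval. The log2 fold change was negative for 10 of 13 tested Hox genes and for 50% of all genes, with medians of -0.18 and 0.0003, and its median size was 0.25 beside 0.30 over all genes. The replicate scatter of the tested Hox genes, as the biological coefficient of variation of edgeR, had a median of 0.241 beside 0.267 for all genes.

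**Figure D3:**
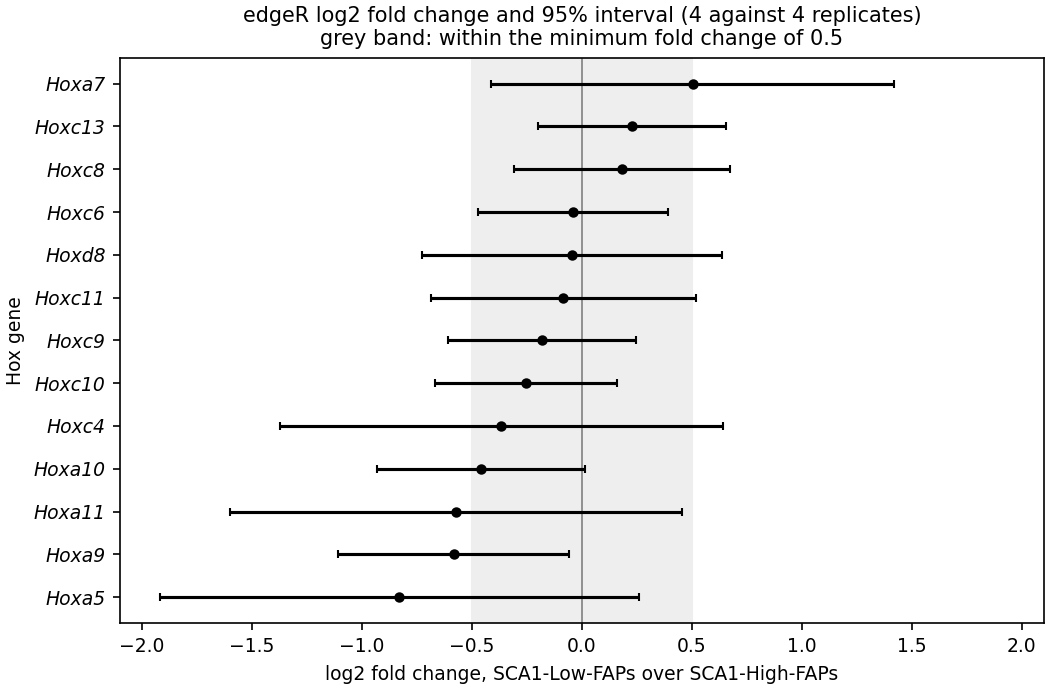
Log2 fold change of the 13 tested Hox genes, SCA1-Low-FAPs over SCA1-High-FAPs, with the 95% interval from edgeR (n = 4 per state) and a grey band at the minimum change of 0.5 that a call required. The interval of Hoxa9 (-1.11 to -0.06) left out 0 and those of the other 12 genes included it, before any adjustment for multiple tests.

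Summed by paralog range, the cell states overlapped in each range but that of groups 9 and 10. The 7 genes of groups 9 and 10 summed to 325, 322, 356 and 282 CPM in SCA1-High-FAPs and to 259.6, 261, 249 and 273 CPM in SCA1-Low-FAPs, or 53.3% and 47.9% of Hox CPM. As shares of Hox CPM the libraries did overlap, at 51.2% to 57.7% and 44.9% to 51.4%. The sums were 24.0 ± 5.99 and 23.3 ± 8.02 CPM (SD, n = 4) for groups 1 to 4, 142 ± 19.0 and 143 ± 13.8 CPM for groups 5 to 8, and 115 ± 13.5 and 119 ± 23.6 CPM for groups 11 to 13. By cluster, A summed to 138, 149, 153 and 114 CPM in SCA1-High-FAPs and 81.7, 121, 91.7 and 111 CPM in SCA1-Low-FAPs, overlapping in 1 library of each state. Cluster C summed to 449.6, 435, 415 and 396 CPM and to 464, 404, 346 and 406 CPM, SCA1-Low-FAPs holding both the highest and the lowest library. These sums rest on a few genes each and are a description without a test.

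**Figure D4:**
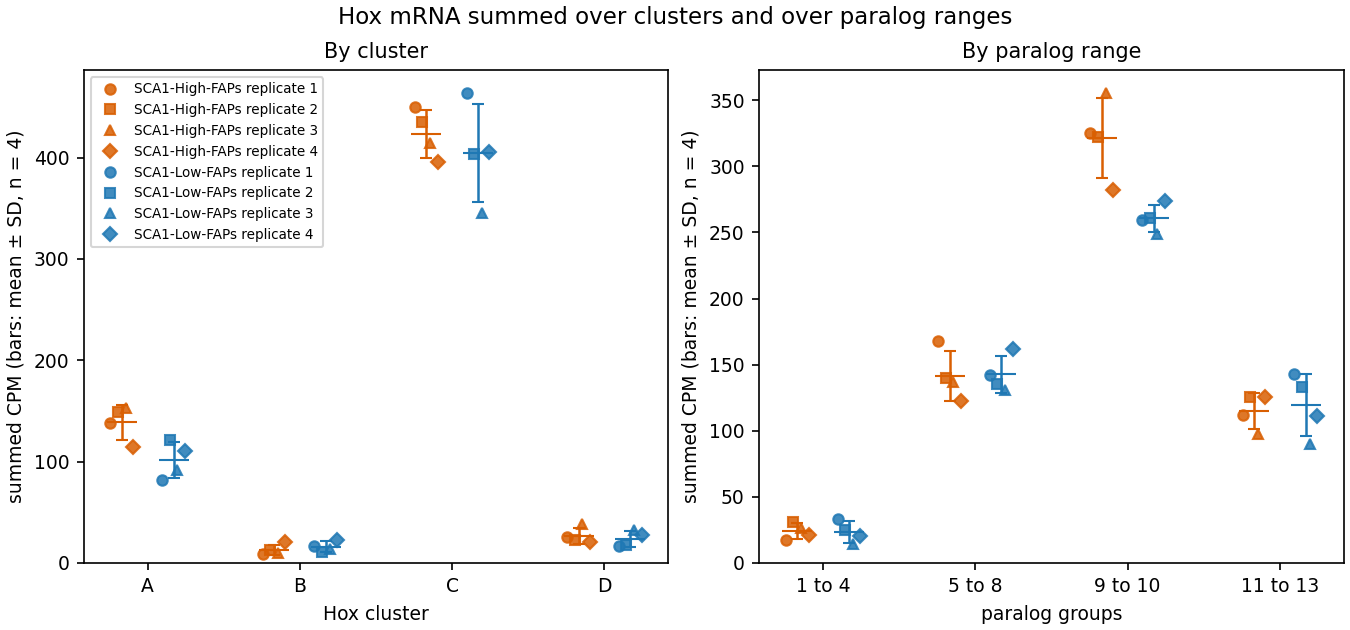
Summed CPM of Hox genes by cluster (left) and by paralog range (right), with 1 point per library (orange SCA1-High-FAPs, blue SCA1-Low-FAPs, marker shape for the replicate) and bars for mean ± SD (n = 4). For groups 9 and 10 the SCA1-High-FAPs libraries (282 to 356 CPM) lay above the SCA1-Low-FAPs libraries (249 to 273 CPM), and every other pair of groups overlapped.

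The rank order of the genes was close between cell states. Of the 10 highest genes in each state, 9 were shared, and Spearman's rho between the state means was 0.945 over the 13 tested genes and 0.916 over the 34 detected genes. On log2(CPM + 1) values of the 13 genes, Pearson's r between pairs of libraries was 0.884 to 0.951 within SCA1-High-FAPs (6 pairs), 0.759 to 0.892 within SCA1-Low-FAPs (6 pairs) and 0.745 to 0.963 between the states (16 pairs). The pairs between states thus spanned the whole range of those within a state. These correlations run across genes that share libraries and depth, and are given as a description.

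The promoters of Hoxa9, Hoxa10 and Hoxa13, from RefSeq on GRCm38.p6, are shown because the first pair are the genes of cluster A with the narrowest intervals of the log2 fold change and the last is a gene of the same cluster near the limit of detection. Each runs 5′ to 3′ over 300 bases, from 250 before to 50 after the annotated start, on the minus strand, at chr6:52227321-52227620 for Hoxa9, chr6:52240805-52241104 for Hoxa10 (the start of its longer transcript) and chr6:52260831-52261130 for Hoxa13. Capitals mark CG dinucleotides, the sites of DNA methylation, which was not measured.
Hoxa9: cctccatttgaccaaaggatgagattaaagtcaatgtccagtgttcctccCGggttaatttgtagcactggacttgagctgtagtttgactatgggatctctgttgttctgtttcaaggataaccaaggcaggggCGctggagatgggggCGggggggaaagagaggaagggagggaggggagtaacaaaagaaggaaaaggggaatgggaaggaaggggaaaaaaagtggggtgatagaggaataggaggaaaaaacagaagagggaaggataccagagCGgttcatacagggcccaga
Hoxa10: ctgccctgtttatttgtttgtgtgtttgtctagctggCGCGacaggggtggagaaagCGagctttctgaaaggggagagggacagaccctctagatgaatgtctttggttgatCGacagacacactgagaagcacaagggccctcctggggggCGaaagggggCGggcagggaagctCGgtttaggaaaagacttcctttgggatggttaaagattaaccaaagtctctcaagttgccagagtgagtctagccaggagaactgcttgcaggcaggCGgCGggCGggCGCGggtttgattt
Hoxa13: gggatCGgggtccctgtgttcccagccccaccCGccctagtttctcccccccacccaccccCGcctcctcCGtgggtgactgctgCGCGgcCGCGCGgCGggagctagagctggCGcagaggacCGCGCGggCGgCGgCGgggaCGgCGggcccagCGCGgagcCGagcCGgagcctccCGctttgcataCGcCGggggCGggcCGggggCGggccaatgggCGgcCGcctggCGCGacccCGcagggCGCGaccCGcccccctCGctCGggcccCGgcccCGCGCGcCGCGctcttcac

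These windows held 4, 12 and 45 CG, while the mean levels of the genes were 39.5, 39.8 and 1.37 CPM. The second RefSeq start of Hoxa10 (chr6:52234890-52235189) held 21. In the same cluster the promoters of Hoxa2, Hoxa3, Hoxa5, Hoxa6, Hoxa7 and Hoxa11 held 9, 20, 29, 26, 9 and 15. The mean levels of those genes were 0.216, 2.20, 9.31, 0.784, 12.4 and 12.6 CPM. Of the 39 Hox genes, 22 were matched with 24 promoters, which held a median of 14.5 CG (4 to 45), beside 7 for all 32841 mouse promoters of that length. The other 17 genes had no promoter there. Among them was every gene of cluster C but Hoxc4, so that the highest Hox genes, Hoxc9, Hoxc10 and Hoxc13, are not covered. Hoxd13, at 7 counts, held 37, and Hoxd4 and Hoxd12, at 0 counts, held 4 and 13. The motif TGATNNAT, to which dimers of Pbx and Hox proteins bind, was found on either strand in 4 of 24 Hox promoters (16.7%), those of Hoxa2, Hoxb1, Hoxb8 and 1 of Hoxd11, and in 8.85% of all promoters. None of the 4 genes had enough counts for the test.

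The Hox clusters also encode microRNAs that can pair with Hox mRNAs. Libraries of mRNA 3′ ends do not measure mature microRNAs, so the sequences are shown for the sites that the members carry and no level is given. RefSeq places miR-196a in clusters B (chr11:96265187-96265208) and C (chr15:102973365-102973386), miR-196b in cluster A (chr6:52230129-52230150, minus strand), miR-10a in cluster B (chr11:96317186-96317208) and miR-10b in cluster D (chr2:74726074-74726096), on the plus strand but for miR-196b. The 5′ arms follow with the seed, bases 2 to 8, in capitals, which is shared by miR-196a and miR-196b and by miR-10a and miR-10b.
miR-196a-5p: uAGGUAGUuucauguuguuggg
miR-196b-5p: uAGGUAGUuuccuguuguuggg
miR-10a-5p: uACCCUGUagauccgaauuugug
miR-10b-5p: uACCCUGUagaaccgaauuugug

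A match to the miR-196 seed (ACTACCT, on the mRNA strand) was present in the longest annotated 3′ UTR of 9 of 39 Hox genes (23.1%), beside 7.17% of the 10031 tested genes with an annotated 3′ UTR. A match to the miR-10 seed (ACAGGGT) was present in 4 of 39 (10.3%), beside 15.2%, and in none of the 13 tested Hox genes. The tested members with a miR-196 match were Hoxa5, Hoxa7, Hoxa9 and Hoxc8. Their sites are shown, with the match in capitals, at chr6:52202118-52202139 for Hoxa5, chr6:52215400-52215421 for the first and chr6:52215210-52215231 for the last of the 4 sites of Hoxa7, chr6:52223900-52223921 for Hoxa9 (all on the minus strand) and chr15:102992976-102992997 and chr15:102993733-102993754 for Hoxc8 (plus strand).
Hoxa5 site: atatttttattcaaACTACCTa
Hoxa7 first site: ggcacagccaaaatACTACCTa
Hoxa7 last site: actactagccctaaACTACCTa
Hoxa9 site: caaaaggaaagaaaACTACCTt
Hoxc8 first site: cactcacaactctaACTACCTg
Hoxc8 last site: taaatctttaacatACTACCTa

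The log2 fold changes of these 4 genes ran from -0.83 for Hoxa5 to 0.50 for Hoxa7, with a median of -0.20, and none was called. Whether a site is used in these cells was not measured.

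Long noncoding RNAs lie between the Hox genes, some of which act on them. Of 17 other genes of the count tables that lie within the 4 clusters, 5 had at least 10 counts. Hotairm1, at the 3′ end of cluster A, had 156 counts, at 7.53, 23.1, 1.25 and 1.83 CPM in SCA1-High-FAPs and 6.77, 7.08, 6.66 and 8.71 CPM in SCA1-Low-FAPs. SCA1-High-FAPs held its highest and its lowest library, and its edgeR adjusted p was 0.921. Gm15050 had 108 counts (3.38 to 8.47 CPM), Hotair, transcribed between Hoxc11 and Hoxc12 on the opposite strand, 75 counts (0 to 7.06 CPM), Hoxb3os 21 and Hoxd3os1 11. Of these, 3 had enough counts for the edgeR test, Hotairm1, Gm15050 and Hotair, and none reached an unadjusted p under 0.05 or was called by DESeq2.

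Hox proteins bind DNA with TALE homeodomain partners, and of 9 TALE genes 8 were tested and 0 called, with 0 at an unadjusted p under 0.05 in edgeR and 0 called by DESeq2. Among them, Meis2 was at 62.5 ± 9.94 and 49.6 ± 11.8 CPM (SD, n = 4).

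The limb type regulators were low. Tbx4 and Pitx1, which set hind limb identity in the embryo, were at 3.30 to 7.52 CPM and 1.36 to 11.3 CPM in SCA1-High-FAPs and at 0 to 7.39 CPM and 2.22 to 9.24 CPM in SCA1-Low-FAPs. Tbx5, the fore limb counterpart of Tbx4, was counted at like levels, 2.26 to 12.1 CPM and 1.09 to 6.77 CPM. Isl1, which acts upstream of Tbx4, had 14 counts in all. Of these 4 genes 3 were tested and 0 called, with 0 at an unadjusted p under 0.05 in edgeR, 0 called by DESeq2 and log2 fold changes of -0.61 for Tbx4, -0.29 for Pitx1 and -0.79 for Tbx5, each with an interval wider than 2 units. Without 1 library Tbx4 ran from -1.18 to -0.25 and Tbx5 from -1.09 to -0.41.

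Across 7 lists of genes that work with or on Hox genes, 84 of 110 were tested and 5 called (5.95%, beside 7.68% of all genes), 4 higher in SCA1-High-FAPs and 1 higher in SCA1-Low-FAPs, where the same directions took 4.36% and 3.32% of all genes tested. In the Polycomb list, whose complexes keep Hox genes silent, 1 of 20 tested was called, with 3 at an unadjusted p under 0.05 and 2 called by DESeq2. The gene called by edgeR was Jarid2, a subunit of the complex that sets the repressive mark on histone H3, at 104, 83.2, 139 and 94.6 CPM in SCA1-High-FAPs and 43.5, 43.6, 47.3 and 63.1 CPM in SCA1-Low-FAPs, and its log2 fold change was -1.09 ± 0.20 (SE, edgeR adjusted p = 0.0033). The enzyme of that complex, Ezh2, was at 71.0 ± 17.2 and 98.7 ± 24.1 CPM and was not called (log2 fold change 0.47, adjusted p = 0.201). In the list of Trithorax genes and activators, which keep Hox genes active, 1 of 15 was called (2 at an unadjusted p under 0.05, 1 called by DESeq2), the histone methyltransferase Kmt2c, at -0.79 ± 0.19 (adjusted p = 0.014), while Kmt2a, the activator of Hox genes in blood, stood at -0.01 ± 0.15.

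Among the 20 tested limb mesenchyme genes 1 was called, with 7 at an unadjusted p under 0.05 and 3 genes of the list called by DESeq2. Of the 11 tested genes that neighbour the clusters 0 were called, with 1 at an unadjusted p under 0.05 and 0 called by DESeq2. Of the 7 tested upstream signals 2 were called, with 4 at an unadjusted p under 0.05 and 2 called by DESeq2. Cyp26b1, which breaks down retinoic acid, an inducer of Hox genes in the embryo, was higher in SCA1-Low-FAPs, at 268, 352, 365 and 314 CPM against 613, 443, 437 and 781 CPM (0.81 ± 0.18, edgeR adjusted p = 0.0116). Leaving out SCA1-Low-FAPs replicate 1 put Kmt2c at an adjusted p of 0.0606, and leaving out SCA1-Low-FAPs replicate 4 put Kmt2c and Cyp26b1 at 0.0573 and 0.0548. Jarid2 was called in all 8 fits that left out 1 library.

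**Figure D5:**
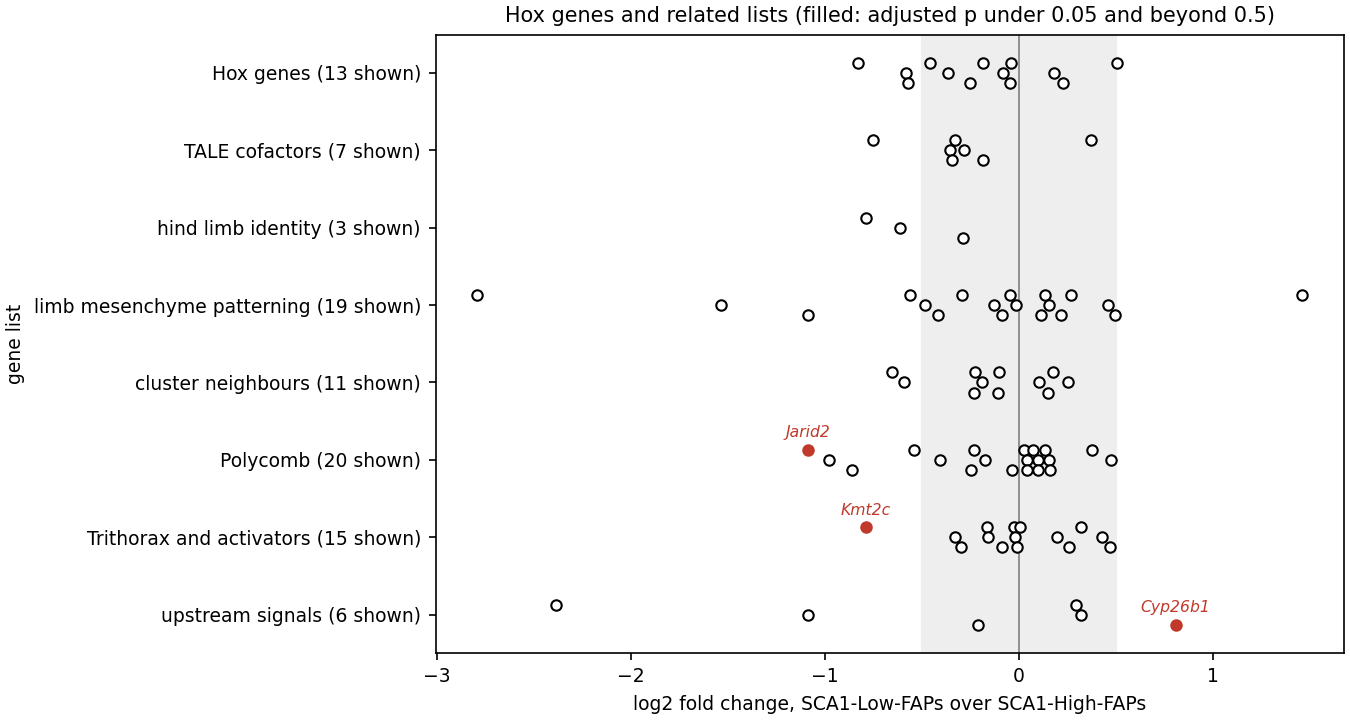
Log2 fold change of the genes reported, SCA1-Low-FAPs over SCA1-High-FAPs, for the Hox genes and 7 related lists (points spread vertically for legibility), with genes called by edgeR filled and named. No Hox gene was called, and of the genes shown in the lists Jarid2 and Kmt2c were called to the left of 0 and Cyp26b1 to the right.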

How the data were processed

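Per the labels and the paper's methods, the authors made QuantSeq 3′ mRNA libraries from 100 ng of total RNA, aligned trimmed reads to mm10 (GRCm38) with STAR and counted uniquely aligned reads per Ensembl 93 gene with HTSeq. The deposited values are these raw counts. The strand setting is not given in the sources used here. Reads on no gene (13.4% to 16.5% of those on genes or on no gene) were left out. Alignments that were not unique were left out as well. They made up 37.5% to 39.7% of all counts, assigned or not, in SCA1-High-FAPs and 40.8% to 43.3% in SCA1-Low-FAPs, without overlap. Their part in the comparison was not tested. Identifiers were matched to GENCODE M21 (31011 of 31053). The cell states were compared with edgeR 4.0.16 (robust quasi-likelihood test, TMM, filterByExpr with minima of 10 counts and 15 in total, Benjamini-Hochberg adjustment over all tested genes), unpaired, with calls at adjusted p under 0.05 and log2 fold change beyond 0.5. DESeq2 1.42.0 was an alternative. The code was tested on simulated data. Replicate numbers are not stated to mark the same mouse, and p-values measure the spread between these samples. The members and lists were chosen with earlier results of these data known. Named were the 10 highest Hox genes, those of groups 11 to 13, called list genes, Tbx4, Pitx1, Isl1 and Tbx5, and cluster noncoding genes with 10 counts or more, with others named after their values were seen. Some genes are not reported here.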

Additional observations from a re-analysis of the deposited data

Results flagged for a closer look

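Of 88 groups of 4 libraries examined (each cell state for the Hox genes with 10 counts or more, the named genes of the related lists, the cluster sums and the noncoding RNAs of the clusters), 2 held a library far from the other 3, where chance alone gives about 1 in 20 groups. For Hoxc6, SCA1-Low-FAPs replicate 4 was at 67.3 CPM and the other 3 libraries at 48.3 to 51.1 CPM. For Hoxd8, SCA1-High-FAPs replicate 2 was at 9.49 CPM and the other 3 libraries at 18.3 to 19.8 CPM.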

How the results depend on the processing

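Hox genes called stayed at 0 with DESeq2, RLE factors, both other count filters, either replicate block, a term for libraries with Xist or Y-linked RNA (chosen after seeing the data, with 2 libraries of each kind in each cell state), both other thresholds and each library left out. All genes called numbered 782, and 307 at an adjusted p under 0.01. Without 1 library they ran from 410 (SCA1-Low-FAPs replicate 4) and 417 (SCA1-Low-FAPs replicate 1) to 1017 (SCA1-Low-FAPs replicate 3). Called list genes numbered 5, with 8 by DESeq2, 1 at 0.01, and 1 to 6 without 1 library. The sign of small log2 fold changes turned when 1 library was left out, with ranges of -0.019 to 0.74 for Hoxa7, -0.17 to 0.054 for Hoxc6, -0.32 to 0.083 for Hoxc11, -0.23 to 0.047 for Hoxd8 and -0.71 to 0.073 for Pitx1. The causes were not tested. Deviations of same-numbered libraries correlated at -0.050 to 0.0067, so the numbers were not taken to pair them. Differently numbered libraries correlated at -0.28 to 0.25. SCA1-High-FAPs replicates 1, 2, 3 and 4 correlated most with SCA1-Low-FAPs replicates 2, 1, 4 and 3 (0.16, 0.13, 0.25 and 0.14). Each of these matches joined libraries of the same kind, with Y-linked RNA or with Xist. A fit that pairs the libraries in that way was not run, since the replicate block goes by number. Whether that block joins libraries of the same mouse is not known. The replicate block gave 697 calls in all and 0 Hox calls, with Hoxa9 at an adjusted p of 0.275 and Ly6a, called without the block, at 0.0573. Depth left 26 Hox genes without an edgeR test.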
